A study of Mus musculus with 16 samples.

Results

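The Toll-like receptors of hippocampal microglia were followed at 2 ages of mouse. The rows of the deposited expression table named Tlr1, Tlr2, Tlr3, Tlr4, Tlr5, Tlr6, Tlr7, Tlr8, Tlr9 and Tlr13 were taken, which gave 10 genes of 24015 rows. RNA sequencing had been done on microglia, the resident macrophages of the brain, sorted from hippocampi of mice aged 3 months (young) or 20 months (aged). Each age had 6 samples. Live cells with CD11b and low CD45 on their surface had been collected by flow cytometry. The strain label was C57BL/6 for all 6 young samples and aged samples 1 to 4, and ended in another digit for aged samples 5 and 6. No treatment or genetic change was named for either age. Whether each sample came from 1 animal or several is not stated, and the p-values below therefore measure only the spread between these samples, which may be technical.

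Toll-like receptors recognise conserved molecules of microbes and of damaged cells, and are known in microglia as triggers of cytokine release. Surface receptors bind bacterial lipids and proteins: TLR2 pairs with TLR1 or TLR6 for lipopeptides, TLR4 with MD-2 for lipopolysaccharide, and TLR5 binds flagellin. Endosomal receptors bind nucleic acids: TLR3 double-stranded RNA, TLR7 and TLR8 single-stranded RNA, TLR9 DNA with unmethylated CpG, and TLR13 a stretch of bacterial ribosomal RNA. All signal through the adaptor MyD88 except TLR3, which uses TRIF, and TLR4, which uses both.

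Depth ranged from 11.4 M reads in young 1 to an estimated 58.2 M in aged 6, with a mean of 39.0 ± 18.0 M in young and 36.4 ± 14.8 M in aged samples (SD, n = 6 each). The deposited values are normalized counts, that is, reads divided by a factor for the depth of each library. Levels between genes were compared per kb of merged exons in the GENCODE M21 annotation of mm10 (GRCm38). The sorted cells carried their label's markers: 8 microglial genes such as Tmem119 and P2ry12 summed to 66991 ± 2138 CPM in young and 61528 ± 2097 CPM in aged samples. That sum was lower in aged samples (exact permutation p = 0.0043, adjusted over 13 comparisons 0.0188). The summed markers of monocytes were higher in aged samples, at 9.40 ± 2.25 against 4.86 ± 1.57 CPM (exact permutation p = 0.0043, adjusted 0.0188). Their range was 2.90 to 7.51 CPM in young and 6.44 to 12.5 CPM in aged samples, and 5 of these 8 markers reached the level tested. All 5 had a log2 difference above 0, and 0 of them passed with limma, 3 at an unadjusted p under 0.05. The summed B cell markers rested on Cd79b, with Pax5 at 0 in all 12 samples, and were lower in aged samples (32.5 ± 2.71 against 41.2 ± 3.22 CPM, exact permutation p = 0.0022, adjusted 0.0188). Choroid plexus markers summed to 26.0 ± 16.8 CPM in young and 66.8 ± 44.3 CPM in aged samples, with ranges of 9.82 to 48.6 and 16.1 to 131 CPM (exact permutation p = 0.056, adjusted 0.183). Without aged 1 or aged 4 that p was 0.017 or 0.019, unadjusted. All 4 of the 5 choroid plexus markers that were tested had a log2 difference of 1.11 or more, and 0 of them passed with limma, 2 at an unadjusted p under 0.05. For the 8 other cell types, among them border macrophages, neutrophils and T cells, the adjusted exact permutation p was 0.298 or higher. The astrocyte sum rested mostly on Slc1a3, the dendritic cell sum on Siglech and the border macrophage sum on Mrc1. These sums thus say little of their other markers. Of the 5 border macrophage markers tested, 4 had a log2 difference above 0, and Mrc1 had -0.27. With limma 0 of the 5 passed, 2 at an unadjusted p under 0.05. Of the 3 astrocyte markers tested 1 passed, Aldh1l1, with 19.4 ± 8.37 normalized counts in young and 57.2 ± 26.5 in aged samples (limma adjusted p = 0.041). The part of these shifts in the results below was not tested. In bulk RNA, fewer cells of a type and less RNA per cell cannot be told apart.

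Of the 10 Toll-like receptors named above, none passed the threshold between the ages, while Tlr12, a further receptor described below, did. The 9 of the 10 genes with at least 10 normalized counts in at least 6 of 12 samples were tested with limma on log2(normalized count + 1), and 0 rose and 0 fell at an adjusted p of 0.05. Over all 11579 genes tested, 1.73% passed, 1.27% higher and 0.458% lower in aged samples. At an unadjusted p under 0.05, 1 of the 9 receptors passed (Tlr5), beside 10.8% of all genes. The count was also 0 with edgeR and with DESeq2 on the reads recovered for 7 samples. The median log2 difference of the 9 receptors, aged minus young, was -0.05, and that of all genes tested was 0.0016. For 8 of the 9, the 95% interval of the fold lay within 1.5-fold in either direction. The exception was Tlr9, with an interval from 0.621 to 1.22.

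**Figure D1:**
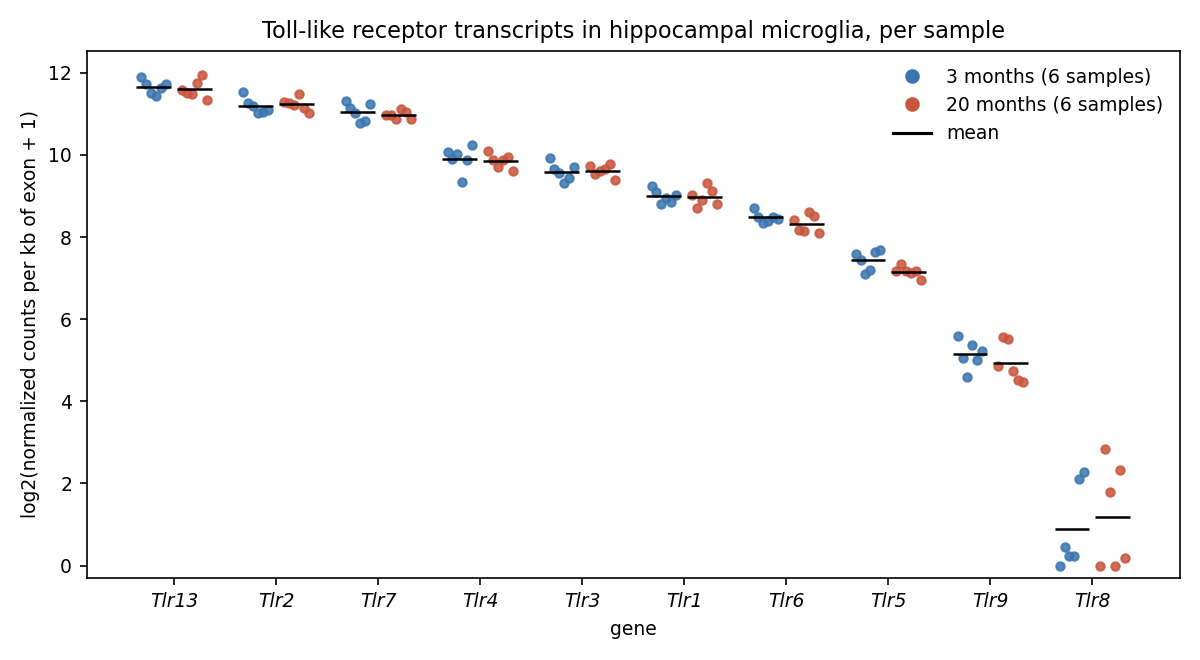
Normalized counts per kb of exon for the 10 Toll-like receptors, as log2(value + 1), with 1 point per sample (6 samples of 3 months, 6 of 20 months) and a line at the mean of each age. The genes run from Tlr13, near 3179 per kb, to Tlr8, near 1.73 per kb, and the points of the ages overlap in each gene.

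Tlr13, Tlr2 and Tlr7 had the highest levels of the 10 receptors. Over all 12 samples the level per kb was 3179 ± 413 normalized counts for Tlr13, 2387 ± 296 for Tlr2 and 2083 ± 237 for Tlr7 (SD, n = 12). Tlr13 ranked 270 and Tlr2 390 among the 11040 tested genes with a known length. Tlr4 followed at 955 ± 149 per kb, then Tlr3 at 783 ± 93.7, Tlr1 at 512 ± 66.8 and Tlr6 at 339 ± 43.3. Tlr5 had 158 ± 27.0, Tlr9 33.2 ± 9.69 and Tlr8 1.73 ± 2.15 normalized counts per kb. Each gene of this order was higher than the next in 12 of 12 samples, except Tlr2 above Tlr7, which held in 11 of 12. The neighbours closest in level were Tlr2 and Tlr7, with a ratio from 0.902 to 1.31 across samples, and Tlr4 and Tlr3, with a ratio from 1.02 to 1.45. Counting bias along transcripts was not corrected for, so the order is that of these libraries.

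The endosomal receptors among the 10 held most of their summed RNA at both ages. Tlr3, Tlr7, Tlr8, Tlr9 and Tlr13 held 58.6 ± 0.90% of the summed level per kb in young and 57.9 ± 1.99% in aged samples. The highest endosomal share was 61.8%, in aged 5, where Tlr13 alone held 34.9%. In the other 11 samples Tlr13 held 28.9 to 32.2% of the sum. The surface receptors Tlr1, Tlr2, Tlr4, Tlr5 and Tlr6 held the remaining 41.4 ± 0.90% and 42.1 ± 1.99%.

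Tlr13, the receptor for bacterial ribosomal RNA (chrX:106143204-106160493, plus strand, protein coding), had 12012 to 16320 normalized counts in young samples, median 14035. In aged samples it had 11104 to 16906, median 12831. The ages overlapped, and both the highest sample, aged 5, and the lowest, aged 6, were aged. Its log2 difference was -0.05, with a 95% interval from -0.26 to 0.15 (limma adjusted p = 0.919).

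Tlr7, the sensor of single-stranded RNA (chrX:167304929-167330558, minus strand), had 7173 to 10326 normalized counts in young samples, median 8889, and 7683 to 8995 in aged samples, median 8242. The aged range lay within the young range. The coefficient of variation was 14.6% in young and 6.21% in aged samples. Between the ages it differed by -0.08 on the log2 scale (interval -0.26 to 0.11, limma adjusted p = 0.865).

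Tlr8 lies beside Tlr7 on the X chromosome (chrX:167242696-167264329, minus strand) and was near the limit of detection. Its values were 0 to 13.9 normalized counts in young samples, median 0.986, and 0 to 22.1 in aged samples, median 4.71. Only 4 of 12 samples reached 10 normalized counts, so it was not tested. Among samples with recovered reads, it had 21 reads in young 5, 12 in young 6 and 14 in aged 5, but 0 in young 1, aged 1 and aged 4 and 1 in young 3. A count of 0 in young 1 allows up to 7.37 normalized counts (3 reads, counting error only), which is above the median of either age.

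Tlr3, the sensor of double-stranded RNA (chr8:45395665-45411080, minus strand), had 3291 to 5024 normalized counts in young samples, median 4057, and 3503 to 4600 in aged samples, median 4095. The aged range lay within the young range. The log2 difference was 0.02 (interval -0.18 to 0.22, limma adjusted p = 0.975). Its exons share 381 bases with Gm45542, an antisense gene on the opposite strand, and these libraries do not mark the strand, so reads there cannot be told apart.

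Tlr9, the sensor of CpG DNA (chr9:106222598-106226883, plus strand), had the lowest level of the 9 of these receptors that were tested. It had 80.9 to 165 normalized counts in young samples, median 119, and 73.8 to 161 in aged samples, median 93.3. Aged 2 and aged 3, at 161 and 156, stood above the other 4 aged samples, which had 73.8 to 97.7. The log2 difference was -0.20, with the widest interval of the 9 receptors, from -0.69 to 0.28 (limma adjusted p = 0.860). The recovered reads behind these values numbered 67 to 191 per sample.

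Tlr2, the shared partner in lipopeptide recognition (chr3:83836272-83841767, minus strand), had 6249 to 8992 normalized counts in young samples, median 6792, and 6218 to 8673 in aged samples, median 7297. The ages overlapped almost fully, with young 1 the highest and aged 6 the lowest sample. Its mean differed by 0.04 on the log2 scale (interval -0.15 to 0.24, limma adjusted p = 0.930).

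The partners Tlr1 and Tlr6 are neighbours on chromosome 5 (chr5:64924679-64933563 and chr5:64952031-64960097, both on the minus strand) and share coding sequence. Of all 50-base stretches of their transcripts, 454 were identical, which is 13.6% of those of Tlr1 and 12.3% of those of Tlr6. The longest identical run, 229 bases of coding sequence, is shown because reads that fall inside it cannot be assigned to either gene by sequence. It lies in 1 exon of each gene, at chr5:64925537-64925765 in Tlr1 and chr5:64953828-64954056 in Tlr6 (GRCm38, GENCODE M21, minus strand, 5′ to 3′).
Tlr1 and Tlr6: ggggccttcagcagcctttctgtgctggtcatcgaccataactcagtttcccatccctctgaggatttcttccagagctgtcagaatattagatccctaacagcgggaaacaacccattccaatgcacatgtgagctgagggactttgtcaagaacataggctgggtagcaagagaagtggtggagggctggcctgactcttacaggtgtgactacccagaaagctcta
How the authors counted reads that match both genes is not given in the sources used here, so the split between the genes is uncertain to that extent.

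Tlr1 had 1483 to 2026 normalized counts in young samples, median 1706, and 1406 to 2138 in aged samples, median 1673. The aged range enclosed the young range. Its log2 difference was -0.01 (interval -0.23 to 0.21, limma adjusted p = 0.981). Tlr6 had 1208 to 1559 in young samples, median 1311, and 1010 to 1441 in aged samples, median 1174. The ages overlapped, and the 3 lowest samples, aged 6, aged 3 and aged 2, were aged. The log2 difference of Tlr6 was -0.15 (interval -0.36 to 0.06, limma adjusted p = 0.690).

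Tlr4, the lipopolysaccharide receptor (chr4:66827584-66930284, plus strand), had 3573 to 6674 normalized counts in young samples, median 5553, and 4345 to 6059 in aged samples, median 5247. The aged range lay within the young range, whose lowest sample, young 4, stood apart from the next young sample at 5234. The log2 difference was -0.05 (interval -0.31 to 0.20, limma adjusted p = 0.936).

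Tlr5, the flagellin receptor (chr1:182954788-182976044, plus strand), had the lowest p of the 10 receptors. It had 911 normalized counts in young 1, 834 in young 2, 650 in young 3, 701 in young 4, 956 in young 5 and 972 in young 6. In aged samples 1 to 6 it had 684, 771, 690, 665, 681 and 585. All 6 aged samples were below the young median of 873, but young 3 and young 4 lay within the aged range. The mean was 837 ± 135 in young and 679 ± 59.4 in aged samples (SD, n = 6 each), a log2 difference of -0.29 with an interval from -0.52 to -0.06. The limma p was 0.0184 unadjusted and 0.297 after adjustment over all genes, so it was not called. It was not called under any of the 29 alternative settings either, where the log2 difference ranged from -0.36 to -0.24.

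The pattern over samples most like that of Tlr5 was that of Slc4a7, Gpr165 and Impad1. Their Pearson correlations with Tlr5 over the 12 samples, on log2 values, were 0.91, 0.90 and 0.90. These are the 3 highest of all genes tested and a description only, since the samples share ages and libraries. Of these, Gpr165 fell from 5249 ± 1402 to 2971 ± 667 normalized counts (log2 difference -0.81, limma adjusted p = 0.016). Slc4a7 and Impad1 did not pass (limma adjusted p = 0.657 and 0.292).

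Within each age, the receptors of some samples lay together above or below the mean of that age. In young 1, the shallowest sample at 11.4 M reads, all 9 tested receptors were above their young mean, by a median of 0.25 on the log2 scale. It was the highest young sample for 7 of the 9. In aged 6, the deepest at an estimated 58.2 M reads, all 9 were below their aged mean, by a median of -0.22, and it was the lowest aged sample for 7. Young 4, at 56.7 M reads, was the lowest young sample for 5 of the 9, with a median deviation of -0.20. Young 2, at 53.9 M, deviated by a median of 0.05. The median deviation of all genes tested was between 0.0001 and 0.022 in every sample. Depth did not differ detectably between the ages (exact permutation p = 0.777). With log2 depth as a covariate, an alternative chosen after seeing the data, again 0 of 9 receptors were called. The part of depth in the deviations of single samples was not tested.

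**Figure D2:**
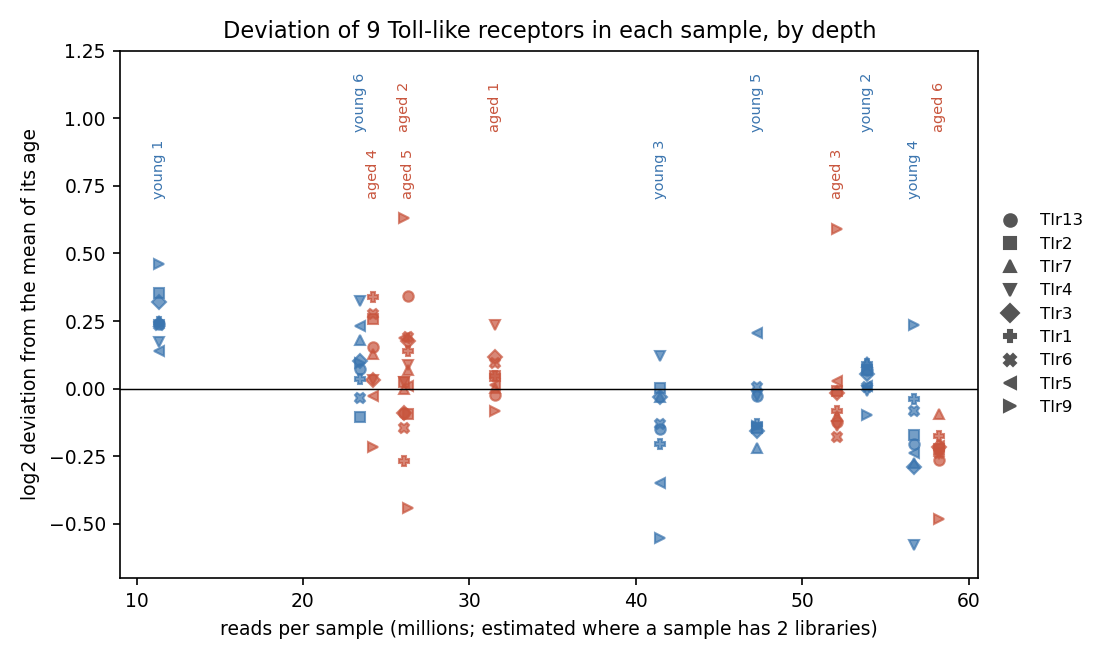
Log2 deviation of each of the 9 tested receptors from the mean of its age, for each sample, against the reads of that sample, in M (estimated for samples made of 2 libraries). Blue marks young and red aged samples. All 9 symbols of young 1 lie above 0 and all 9 of aged 6 below 0.

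Mice carry further receptors of the family, Tlr11 and Tlr12, which together bind profilin of protozoa, and these were read from the list of co-receptors and chaperones. Tlr12 (chr4:128615443-128618619, minus strand) rose with age. It had 2799, 2802, 2324, 2246, 2145 and 2175 normalized counts in young samples 1 to 6 and 4455, 3169, 3919, 4230, 3071 and 2919 in aged samples 1 to 6. Every aged sample was above every young one, which held, in either direction, for 1.87% of all genes tested. The mean was 2415 ± 305 in young and 3627 ± 657 in aged samples. The log2 difference was 0.58, which is 1.49-fold, with an interval of the fold from 1.26 to 1.76 (limma adjusted p = 0.011). In the 8 samples made of 1 library the log2 difference was 0.65 with a limma adjusted p of 0.05004, just above the threshold, so the call was lost there. In the 4 samples made of 2 libraries it was higher in aged 3 and aged 6 than in young 2 and young 4, and these 4 samples were not tested on their own. Its level per kb was 760 ± 96.0 in young and 1142 ± 207 in aged samples, beside 978 ± 189 and 931 ± 109 for Tlr4. The mean of Tlr12 thus lay below that of Tlr4 in young and above it in aged samples. Tlr11 had 4.91 to 45.6 normalized counts in young and 0 to 63.7 in aged samples, and its log2 difference of 0.33 had an interval from -1.43 to 2.10 (limma adjusted p = 0.941). The difference between Tlr12 and the other receptors was not tested.

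The promoters of the family were searched for 4 motifs on both strands, in 250 bases before to 50 after each start site (RefSeq, GRCm38.p6). The tables matched 10 of 12 family genes with 12 promoters. Tlr4 and Tlr7 were not matched. The interferon-stimulated response element core (GAAA, any 2 bases, GAAA) was in 2 of these 12, those of Tlr6 and Tlr11, and in 3.44% of all 32851 promoters. The NF-kB motif was in 2, those of Tlr2 and Tlr3, and in 4.51% of all. The core of PU.1 (GAGGAA), a myeloid transcription factor, was in 5 and in 28.3% of all, and CACGTG in 1 and in 7.15% of all. A match is a string of letters, not a shown binding site. Given here are the 250 bases before the Tlr12 start site, the one family gene that rose, which hold none of these motifs (chr4:128618620-128618869), and those before 1 of the Tlr6 start sites, with 2 overlapping matches to the interferon core, both on the reverse strand, in capitals (chr5:64959167-64959416). Both are on the minus strand and written 5′ to 3′.
Tlr12: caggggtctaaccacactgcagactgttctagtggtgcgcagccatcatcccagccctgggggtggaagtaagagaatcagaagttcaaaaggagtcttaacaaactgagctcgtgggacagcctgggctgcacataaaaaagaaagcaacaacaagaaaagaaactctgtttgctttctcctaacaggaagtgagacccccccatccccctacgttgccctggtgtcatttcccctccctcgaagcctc
Tlr6: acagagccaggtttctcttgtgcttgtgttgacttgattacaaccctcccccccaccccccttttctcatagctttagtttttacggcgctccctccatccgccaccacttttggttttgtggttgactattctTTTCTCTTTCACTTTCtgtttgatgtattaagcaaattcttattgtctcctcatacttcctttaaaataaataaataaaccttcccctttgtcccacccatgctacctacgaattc
The gene with these letters, Tlr6, was not called between the ages, with the values given above.

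The list of co-receptors and chaperones, which includes the receptors Tlr11 and Tlr12, held 2 calls. Of 23 genes listed 20 were tested, 1 rose (Tlr12) and 1 fell (Slc15a3), with a median log2 difference of 0.03. Limma gave 6 of the 20 an unadjusted p under 0.05, beside 10.8% of all genes. Over all genes tested, 1.27% rose and 0.458% fell. Slc15a3, an endolysosomal transporter of histidine and muramyl dipeptide, had 683 to 1101 normalized counts in young samples, median 962, and 540 to 816 in aged samples, median 614. All 6 aged samples were below the young median, and young 1, at 683, lay within the aged range. The mean fell from 944 ± 142 to 653 ± 99.7 (log2 difference -0.53, interval -0.78 to -0.27, limma adjusted p = 0.033). This call was lost without any one of aged 1, 2, 4 and 5 or young 2, 3, 4, 5 and 6, with limma adjusted p from 0.0539 to 0.0884.

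Cd14, the lipopolysaccharide co-receptor of TLR4, had 16027 to 19141 normalized counts in young and 13184 to 17220 in aged samples. All 6 aged samples were below the young median of 17236, but the ages overlapped. The log2 difference of -0.23 (interval -0.39 to -0.07) did not pass (limma adjusted p = 0.180). Ly96, which encodes MD-2, had 630 ± 74.6 in young and 643 ± 122 in aged samples (limma adjusted p = 0.987). The receptor Cd180 and its partner Ly86, which restrain TLR4 signalling in some cells, had log2 differences of -0.11 and 0.04 (limma adjusted p = 0.886 and 0.938). Unc93b1, the chaperone that carries nucleic acid receptors to endosomes, had 82984 ± 5157 in young and 79457 ± 4932 in aged samples (log2 difference -0.06, interval -0.20 to 0.07, limma adjusted p = 0.839).

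Adaptors and kinases held 0 calls among the 23 of 24 genes tested with limma, beside 1.73% of all genes. At an unadjusted p under 0.05 there were 2, beside 10.8% of all genes, and the median log2 difference was 0.0009. Myd88 had 3371 to 3570 normalized counts in young and 3119 to 3655 in aged samples, so the aged range enclosed the young one. Its log2 difference was -0.03 (interval -0.15 to 0.10, limma adjusted p = 0.936). Ticam1, which encodes TRIF, had 665 ± 124 and 748 ± 103 (limma adjusted p = 0.735). The lowest p-values belonged to Tab2, a partner of the pathway's kinases, with 1034 ± 138 and 834 ± 168, and Tirap, the bridge to MyD88, with 1337 ± 119 and 1167 ± 89.4. Neither passed (limma adjusted p = 0.297 and 0.363).

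Transcription factors downstream of the receptors also held 0 calls among 13 tested with limma, beside 1.73% of all genes, with a median of 0.06. At an unadjusted p under 0.05 there were 2, beside 10.8% of all genes. Irf7, the interferon regulatory factor downstream of TLR7 and TLR9, had 143 to 248 normalized counts in young and 196 to 702 in aged samples. Aged 3, 4 and 5 had 439, 702 and 637, above all young samples, while aged 1, 2 and 6, at 196 to 227, lay within the young range. It did not pass in limma (log2 difference 0.78, interval 0.16 to 1.40, adjusted p = 0.287). Of 28 alternatives, 1 called it, DESeq2 on the 7 samples with recovered reads (adjusted p = 0.0021). The aged samples among those 7 were aged 1, 4 and 5. In edgeR on the same reads it was not called. The immediate-early gene Fos had 9.83 to 37.0 in young and 18.1 to 469 in aged samples (limma adjusted p = 0.325).

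Negative regulators held 1 call among 15 tested, beside 1.73% of all genes, with a median of 0.03. An unadjusted limma p under 0.05 was found for 2 of the 15, beside 10.8% of all genes. Irak3, the inactive kinase that restrains MyD88 signalling, had 108 to 192 normalized counts in young samples, median 157, and 192 to 268 in aged samples, median 244. Of the 6 aged samples 5 were above all young ones, and aged 1 lay just below the highest young sample, young 3, both at 192. The mean rose from 156 ± 27.5 to 237 ± 30.4 (log2 difference 0.61, interval 0.30 to 0.93, limma adjusted p = 0.046). The call was lost in 18 of 28 alternatives, among them each omission of 1 sample other than aged 1 or young 3 (limma adjusted p from 0.0638 to 0.124). Sigirr, an inhibitory receptor of the same pathway, had 31.8 ± 15.4 and 12.98 ± 4.96 and did not pass (log2 difference -1.20, limma adjusted p = 0.155).

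Of 21 listed cytokines and effectors that Toll-like receptors induce, 13 were tested. Of these 1 rose, beside 1.27% of all genes tested, and the median log2 difference was 0.22. Limma gave 3 of the 13 an unadjusted p under 0.05, beside 10.8% of all genes. Cd40, a co-stimulatory receptor, had 15.0 to 38.5 normalized counts in young samples, median 28.5, and 45.3 to 109 in aged samples, median 75.5. The ages did not overlap. The log2 difference was 1.43 (interval 0.79 to 2.07, limma adjusted p = 0.018). The call was lost in 7 of 27 alternatives, among them without aged 3, where the log2 difference was 1.31 (limma adjusted p = 0.0564). Il6 was also higher in every aged sample than in any young one, at 130 to 210 against 65.6 to 121, but did not pass (log2 difference 0.72, limma adjusted p = 0.059; 0.049 without young 4). Of the 8 genes not tested, Il10 and Cxcl1 were listed at 0 in all 12 samples. Tnf and Il1b, classical products of the pathway, had log2 differences of 0.43 and 0.60 that did not pass (limma adjusted p = 0.853 and 0.590).

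**Figure D3:**
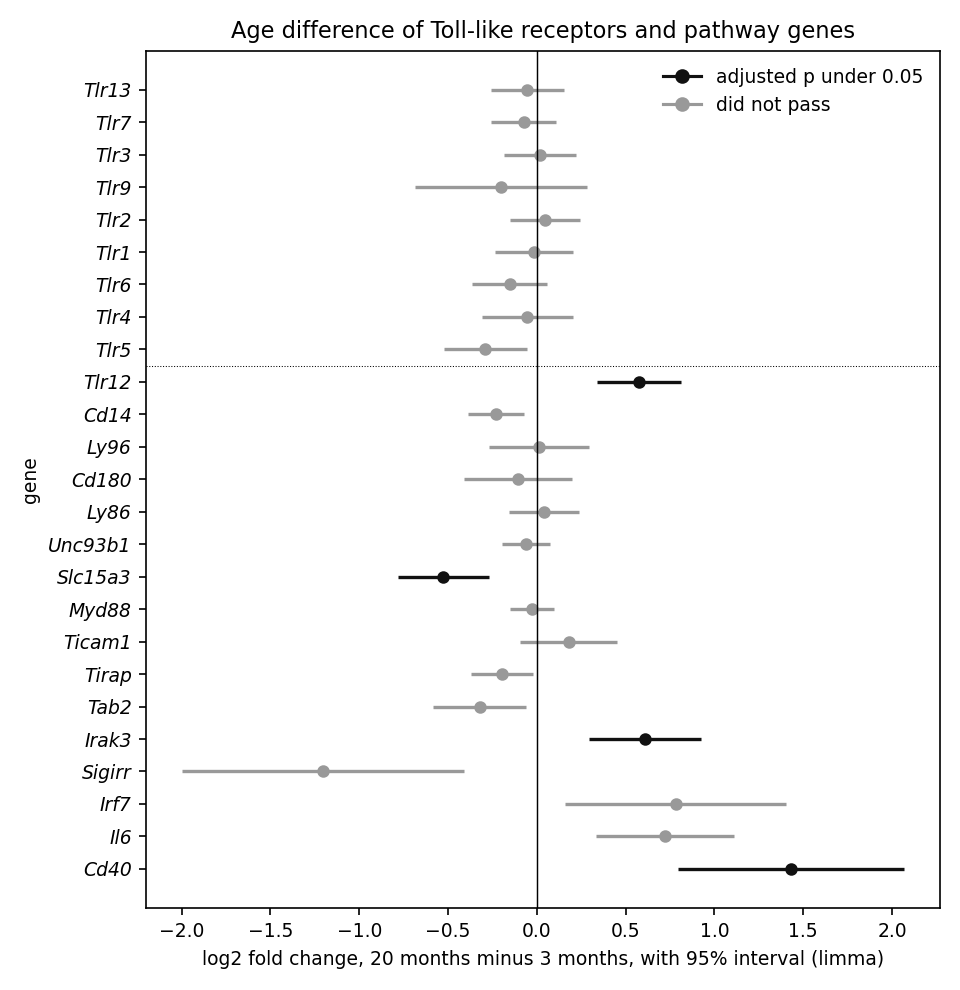
Log2 fold change of aged over young samples with its 95% interval from limma, for the 9 tested receptors (above the dotted line) and some named genes of the pathway lists. Genes of the type I interferon response, which held most of the calls of these lists, are not drawn. Among the genes drawn, black marks those past the adjusted threshold: Tlr12, Irak3 and Cd40 are higher and Slc15a3 is lower in aged samples. All 9 receptors are grey.

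**Figure D4:**
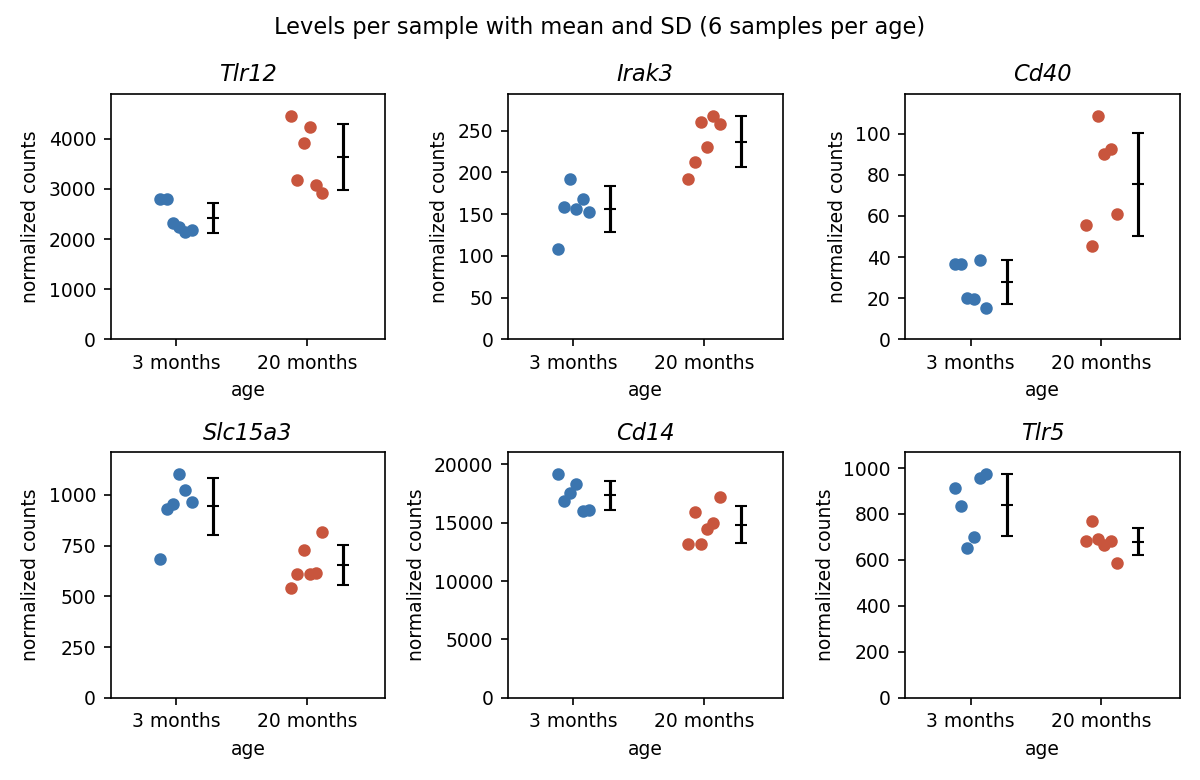
Normalized counts per sample of 6 genes, with 6 samples of 3 months and 6 of 20 months and, beside them, the mean with its SD. The ages do not overlap in Tlr12 and Cd40 and overlap in Slc15a3, Cd14 and Tlr5, and in Irak3 the lowest aged sample meets the highest young one.

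The type I interferon response, which endosomal receptors among other sensors can start, held 8 of the 12 calls of the pathway lists. All 20 listed genes were tested, and 8 rose and 0 fell, beside 1.27% higher and 0.458% lower of all genes tested. All 20 had a log2 difference above 0, as did 5850 of all 11579 genes tested. An unadjusted limma p under 0.05 was found for 17 of the 20, beside 10.8% of all genes. The median log2 difference was 0.88 beside 0.0016 for all genes. Oasl2, an interferon-induced gene of the oligoadenylate synthetase family, rose from 133 ± 31.0 to 528 ± 260 normalized counts (log2 difference 1.85, limma adjusted p = 0.000813). Sp100, a nuclear body protein, rose from 251 ± 22.7 to 578 ± 163 (log2 difference 1.16, limma adjusted p = 0.00044). Ifi204 and Zbp1, both sensors of nucleic acid, rose by 1.77 and 1.35 (limma adjusted p = 0.0020 and 0.0079). Isg15, Oas1a and Usp18 also rose, with limma adjusted p from 0.0437 to 0.0466, and each lost its call in 17 or 18 of 28 alternatives. The count fell to 4 when any one of aged 3, 4 and 5 or young 1, 2, 4, 5 and 6 was left out. It was 12 without aged 6 and 13 with DESeq2 on recovered reads. Oasl2, Sp100, Ifi204 and Zbp1 were called in all 28 alternatives. Over the same samples Tlr3, Tlr7, Tlr9 and Tlr13 had log2 differences from -0.20 to 0.02, and Tlr11 and Tlr12, which are also endosomal, had 0.33 and 0.58, of which that of Tlr12 passed.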

How the data were processed

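Per the labels' protocols, RNA of the sorted cells was amplified with SmartSeq v4 and prepared with the unstranded Nextera XT kit for sequencing on a NovaSeq instrument. Per the series' design text, the authors used bcl2fastq, fastx_trimmer, STAR, samtools and DESeq2, on mm10 per the submitters' processing notes. For tool versions, annotation and the treatment of reads that match several genes, the sources used here give nothing. The table deposited by the authors gives normalized counts, a signal of 0 or more per gene, in 1 column for each of 12 samples. The labels name 16 libraries: 4 samples (young 2, young 4, aged 3, aged 6) have 2 technical replicate libraries and 8 have 1. All values in the 8 columns of 1 library lay within 0.1 read of a multiple of that column's step. The 4 others matched a mean of 2 normalized libraries, and their depth is an estimate. Aged 2's step lay too near 1 for the recovery to be checked, so count tests used 7 samples (young 1, 3, 5, 6 and aged 1, 4, 5).

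The age comparison used limma 3.58.1 under R 4.3.3 (mean-variance trend, two-sided) on log2(normalized count + 1), which understates changes of low genes. Genes with 10 normalized counts in 6 of 12 samples entered, with Benjamini-Hochberg adjustment over all of them at 0.05. Alternatives used edgeR 4.0.16 and DESeq2 1.42.0 on recovered reads, other pseudocounts (0.5, 5), filters, scalings, a replicate block, a minimum fold of 1.2, omission of samples and a depth covariate. Single values were compared by exact two-sided permutation tests over 924 assignments, whose smallest p is 0.0022. The fits were tested on simulated data. Errors are SDs over samples. The receptors and all gene lists were chosen with earlier results of these data known, so they are no independent support. Named are all receptors, every called member of a list (except 1 that is not reported here), the 2 with the smallest p, and Cd14, Ly96, Cd180, Ly86, Unc93b1, Myd88, Ticam1, Irak3 and Irf7. Tnf, Il1b and the genes listed at 0 were named after their values were seen. Levels of genes were set against each other per kb of merged exons. Proteins were not analysed here. The 27 symbols that had become dates and the 2 repeated names include no Toll-like receptor.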

Additional observations from a re-analysis of the deposited data

Results flagged for a closer look

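Of 72 groups formed by 36 named genes at 2 ages, 5 held a sample whose gap to its nearest neighbour took a larger share of the range of the 6 samples than Dixon's 95% critical value, and chance flags about 1 in 20 groups. Tlr6 had 1559 normalized counts in young 1 and 1208 to 1330 in the other young samples. Unc93b1 had 73261 in young 6 and 82731 to 87919 in the others. Tirap had 1336 in aged 6 and 1092 to 1176 in the other aged samples. Fos, an immediate-early gene, had 469 in aged 4 and 18.1 to 102 in the other aged samples. Usp18, an interferon-induced protease, had 368 in young 3 and 152 to 229 in the other young samples.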

How the results depend on the processing

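The count of calls among the 10 Toll-like receptors from Tlr1 to Tlr9 and Tlr13 was 0 in both directions under all 28 alternative fits across genes, and the exact permutation test adjusted over all genes could not pass (smallest adjusted p 0.115). The 11 higher calls of the pathway lists became 5 with no filter, 7 with quantile normalization, 7 with the replicate block, 18 with DESeq2 on recovered reads, 4 in the samples with 1 library, 4 with a minimum fold of 1.2, and 5 to 14 on leaving out a sample. The 1 lower call became 0 with no filter, no trend, edgeR, 1 library or the minimum fold, and 0 to 1 on leaving out a sample. For all genes, 147 higher calls became 94 with edgeR, 67 in samples with 1 library, 68 with the minimum fold and 102 to 175 on leaving out a sample. The 53 lower calls became 10, 11 and 9 in the same settings, 30 with the replicate block and 27 to 60 on leaving out a sample. The replicate numbers did not pair the samples (correlations of same-numbered deviations from -0.12 to 0.11, 1 of 6 best with its own number). Under that block Irak3 and Cd40 lost their calls (limma adjusted p = 0.0592 for each), and Tlr12 kept its call (0.011). Without aged 5 and 6, whose strain label differs, the higher calls of the pathway lists numbered 8. There Cd40, Irak3, Isg15 and Usp18 lost their calls (limma adjusted p = 0.0622, 0.159, 0.103 and 0.0631). The part of strain was not tested. Tlr12 lost its call with the minimum fold (adjusted p = 0.425) and in the samples with 1 library. Small log2 differences changed sign with DESeq2, edgeR and 1-library limma, in that order: Tlr13 to 0.073, 0.072 and 0.0092, Tlr1 to 0.17, 0.17 and 0.064, Ly96 to -0.18, -0.18 and -0.13, Cd180 to 0.060, 0.062 and 0.013 and Ly86 to -0.0074, -0.0093 and -0.021. Tlr6 moved to 0.016 with DESeq2 and 0.014 with edgeR, Tlr9 to 0.029 without aged 5 and 6, and with quantile normalization Ly96 to -0.0079 and Unc93b1 to 0.035. On leaving out a sample the log2 difference ran from -0.082 to 0.039 for Tlr1, -0.0063 to 0.12 for Tlr2, -0.040 to 0.082 for Tlr3, -0.17 to 0.011 for Tlr4, -0.0058 to 1.2 for Tlr11, -0.057 to 0.13 for Ly96 and -0.0014 to 0.13 for Ly86, across 0 in each. The cause was not tested. The aged minus young difference of summed markers, on leaving out a sample, ran from -0.0237 to 0.0145 CPM for T cells, 8.20 to 15.4 CPM for oligodendrocytes and 28.02 to 50.9 CPM for choroid plexus, and that of depth from -8.14 to 0.932 M reads. Low counts limit Tlr8, Tlr9 and Tlr11, and also Cd40, Sigirr and Fos.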
